A study of Mus musculus with 8 samples.

Results

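Open chromatin that lay outside genes, away from every annotated transcript start, and that was called in both MPP3 and MPP4 cells was described here from an ATAC-seq experiment on mouse bone marrow. A peak was included when its centre was more than 1 kb from every GENCODE vM21 transcript start and outside every gene body, and when it shared at least 1 bp with a peak of the other cell type. Of the 87642 peaks of the MPP3 table, 19088 (21.8%) met this rule, and of the 86952 peaks of the MPP4 table, 19128 (22.0%) did. They are called shared intergenic peaks below. All positions are on mm10 and on the 19 autosomes.

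Both cell types are multipotent progenitors, a step below the hematopoietic stem cell in the marrow. MPP3 cells give mainly myeloid progeny, and MPP4 cells, which carry the cytokine receptor Flt3, are primed for the lymphoid lineages. ATAC-seq marks DNA that a transposase can reach. Such sites far from promoters include enhancers, which are bound by lineage transcription factors, and sites of CTCF, a protein that anchors chromatin loops and is bound at many of the same places in different cell types. GATA factors such as GATA2 bind words around GATA, and E proteins such as those encoded by Tcf3 and Tcf4 bind E-boxes.

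The libraries came from C57BL/6 mice of 8 or 9 weeks, whose femora, tibiae and ilia were pooled. The mice labelled wild type were Ebf1fl/fl Tie2Cre +/+ and those labelled knockout Ebf1fl/fl Tie2Cre +/cre, so both carried the floxed Ebf1 allele, while the series text calls the controls Ebf1-wt Tie2Cre. Tie2-Cre is active in endothelium and in blood cells from an early stage, and EBF1 is the transcription factor that commits cells to the B lineage. There were 2 libraries per genotype and cell type, each from 5000 sorted cells, with MPP3 gated as LSK+ CD150- CD48+ and MPP4 gated in the same way and also as Flt3+. The value of a peak was the authors' mean log2 CPM over the 4 libraries of a cell type, both genotypes together. It has no replicate error, the genotypes could not be separated, and no test was possible, so every difference below is a description of these 2 tables. The tables were normalized separately.

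Transcript starts of the genes that define the gate were open. Of 6 such genes (Kit, Ly6a, Cd48, Cd34, Ptprc and Flt3), 5 had a peak within 1 kb of a start in MPP3 and 6 in MPP4, Ly6a being the one without a peak in MPP3 and having 1.15 log2 CPM in MPP4. The summed level at the Flt3 starts was 5.92 log2 CPM in MPP3 and 7.01 in MPP4. Cd3e, Cd8a, Ly6g, Klf1, Alb, Krt5 and Myod1 had no peak at a start in either table. The endothelial genes Pecam1 and Cdh5 had peaks in both, with 3.42 log2 CPM at Cdh5 in MPP3 and 4.85 in MPP4.

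The shared intergenic peaks with the most unequal levels in MPP3 and MPP4 differed in the short words they contained, and the central 300 bp of a few of them are given first. The windows were read from GRCm38 about the centre of the MPP3 peak, and each peak is named by the nearest protein-coding transcript start. The first and second are the peaks with the largest excess in MPP3 among those with a mean level of at least 3 log2 CPM. The third, lower in the same order, lies near Gata2, which encodes a GATA factor of stem and progenitor cells. Capitals mark GATA words (AGATAA or TGATAA on either strand).
Cand1 peak, chr10:119086554-119086853, plus strand: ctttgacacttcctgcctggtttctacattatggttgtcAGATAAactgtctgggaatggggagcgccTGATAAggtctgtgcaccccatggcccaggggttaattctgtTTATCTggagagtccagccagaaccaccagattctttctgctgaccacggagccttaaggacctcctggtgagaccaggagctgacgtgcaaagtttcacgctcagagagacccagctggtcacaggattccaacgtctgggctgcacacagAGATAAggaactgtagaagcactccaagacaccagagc
Epha4 peak, chr1:77298769-77299068, plus strand: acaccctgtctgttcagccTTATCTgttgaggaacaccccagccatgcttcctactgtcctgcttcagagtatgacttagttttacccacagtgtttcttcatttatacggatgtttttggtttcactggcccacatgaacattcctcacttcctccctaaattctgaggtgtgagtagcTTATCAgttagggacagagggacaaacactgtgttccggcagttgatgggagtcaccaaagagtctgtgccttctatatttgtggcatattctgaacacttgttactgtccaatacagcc
Rpn1 peak, chr6:88116855-88117154, plus strand: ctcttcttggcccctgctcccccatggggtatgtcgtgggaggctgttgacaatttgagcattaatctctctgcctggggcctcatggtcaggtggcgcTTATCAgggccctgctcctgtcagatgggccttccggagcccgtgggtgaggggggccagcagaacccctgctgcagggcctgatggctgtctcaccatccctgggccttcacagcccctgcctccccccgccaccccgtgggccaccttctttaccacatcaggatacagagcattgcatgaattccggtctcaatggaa

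The next 3 are the peaks with the largest excess in MPP4, with E-box words in capitals (CAGGTG or CAGCTG on either strand).
A430005L14Rik peak, chr4:153728072-153728371, plus strand: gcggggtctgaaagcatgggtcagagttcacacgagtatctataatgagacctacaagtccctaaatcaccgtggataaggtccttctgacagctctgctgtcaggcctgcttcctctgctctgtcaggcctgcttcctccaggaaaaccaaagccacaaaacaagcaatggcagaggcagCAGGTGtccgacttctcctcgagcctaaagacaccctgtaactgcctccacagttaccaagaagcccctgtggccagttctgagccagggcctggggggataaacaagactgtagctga
Spata5 peak, chr3:37605937-37606236, plus strand: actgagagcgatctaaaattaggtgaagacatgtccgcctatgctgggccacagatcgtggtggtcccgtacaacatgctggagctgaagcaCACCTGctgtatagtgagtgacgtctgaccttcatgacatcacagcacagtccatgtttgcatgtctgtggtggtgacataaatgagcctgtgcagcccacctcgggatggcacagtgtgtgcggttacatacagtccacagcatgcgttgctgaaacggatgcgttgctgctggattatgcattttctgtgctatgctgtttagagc
Sfswap peak, chr5:129456548-129456847, plus strand: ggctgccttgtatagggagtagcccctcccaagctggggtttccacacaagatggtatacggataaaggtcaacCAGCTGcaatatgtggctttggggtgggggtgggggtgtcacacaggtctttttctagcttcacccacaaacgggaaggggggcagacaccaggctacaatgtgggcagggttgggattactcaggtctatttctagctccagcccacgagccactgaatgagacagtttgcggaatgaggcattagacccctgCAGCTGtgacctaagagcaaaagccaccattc

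The last holds a CTCF match, in capitals. It is the peak whose mean level was nearest the median of all shared intergenic peaks with such a match, and it lies 6391 bp from the nearest start, that of Sit1. It had 1.95 log2 CPM in MPP3 and 2.42 in MPP4.
Sit1 peak, chr4:43476682-43476981, plus strand: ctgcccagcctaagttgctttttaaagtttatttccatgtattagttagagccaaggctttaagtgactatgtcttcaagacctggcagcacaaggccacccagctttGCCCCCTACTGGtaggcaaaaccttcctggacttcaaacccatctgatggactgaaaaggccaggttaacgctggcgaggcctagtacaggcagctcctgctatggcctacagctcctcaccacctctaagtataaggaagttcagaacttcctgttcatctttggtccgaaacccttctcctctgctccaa

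Shared intergenic peaks were weaker than shared promoter peaks and close in level to shared distal peaks inside genes. In MPP3 the median was 2.32 log2 CPM, with quartiles of 1.63 and 3.20, against 2.33 for shared distal peaks inside genes and 3.90 for shared peaks within 1 kb of a start. In MPP4 the 3 medians were 2.46, 2.48 and 3.82. Divided by peak length, the median level was 4.13 log2 CPM per kb in MPP3 and 4.18 in MPP4, and that of shared promoter peaks was 5.22 and 5.21. The shared intergenic peaks held 16.4% of the summed CPM of all peaks in MPP3 and 18.7% in MPP4. Promoter peaks held 54.8% and 49.3%.

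**Figure D1:**
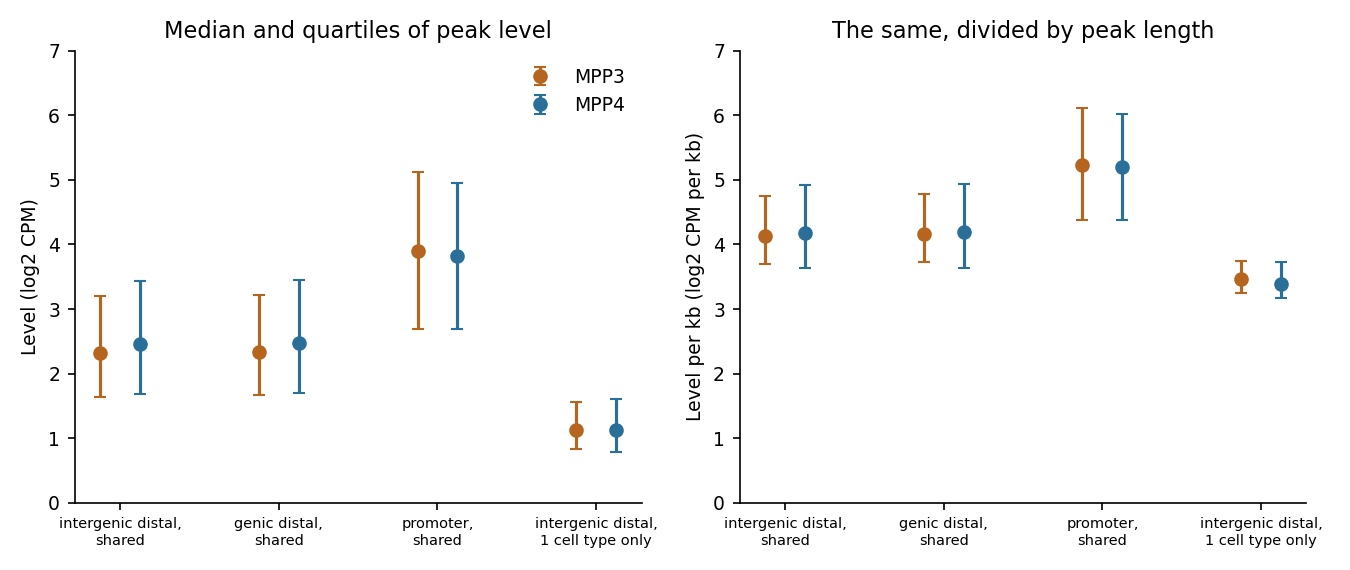
Median (points) and quartiles (bars) of the level of peaks by class, in log2 CPM (left) and log2 CPM per kb of peak (right), for MPP3 (brown) and MPP4 (blue). Shared intergenic distal peaks, with medians of 2.32 and 2.46 log2 CPM, sit beside shared genic distal peaks and below shared promoter peaks.

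Intergenic distal peaks called in MPP3 alone numbered 7595 and had a median of 1.12 log2 CPM, and the 7346 called in MPP4 alone had 1.13. A call in both tables favours strong peaks, so this gap belongs to the rule and is no finding. The shared intergenic peaks were short, with a median length of 282 bp in MPP3 and 301 bp in MPP4. They were AT-richer than promoter peaks, with a median GC content of 50.0% in the central 300 bp against 61.7%. The observed over expected number of CpG was 0.219 against 0.686. Repeats made up at least 80% of the length of 359 of the 19088 peaks in MPP3 (1.88%).

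The distance to the nearest transcript start had a median of 12534 bp in MPP3 and quartiles of 5852 and 25489 bp. Counting protein-coding genes only, the median was 24514 bp. Of the MPP3 peaks, 4733 (24.8%) were under 10 kb from a protein-coding start and 3055 (16.0%) were over 100 kb away. Of all of them, 61.7% lay upstream of that start. The rule leaves out gene bodies, which lie downstream of starts, so an upstream majority is no finding. Peaks over 100 kb away had a median level of 2.04 log2 CPM, against 2.67 for those between 1 and 5 kb. The 2 shared intergenic peaks of MPP3 just inside the limit of 1 kb were at 1001 bp, one of them near Arc with 3.32 log2 CPM. Just outside it, 3 shared peaks outside gene bodies were at 1000 bp, one of them near Gm10655 with 5.53 log2 CPM.

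The 3 peaks farthest from any start were 483805, 476102 and 463470 bp away. The first and second lie on chromosome 2 between Hao1, which encodes a liver hydroxyacid oxidase, and Bmp2, which encodes a growth factor of the BMP family. Their levels were 2.04 and 1.40 log2 CPM in MPP3 and 2.79 and 3.08 in MPP4, both higher in MPP4. The other lies on chromosome 6, nearest to the start of Ndufa4, which encodes a subunit of the respiratory chain, with 2.06 log2 CPM in MPP3 and 1.89 in MPP4. Repeats made up 93.2% of it.

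The 5 peaks with the highest level per kb, taken as the mean of both cell types, are named by Hic2, Fbrs, Cdh20, Igf2bp3 and Cd209a. These are the nearest protein-coding starts, and that of Cdh20 was 2140273 bp away. The Hic2 peak (chromosome 16, 17222191 to 17222514) had 10.4 log2 CPM per kb in MPP3 and 9.18 in MPP4. The Fbrs peak (chromosome 7, 127477659 to 127478548), 1096 bp from the start of Fbrs, a Polycomb-associated gene, had 8.52 in both. In the Cdh20, Igf2bp3 and Cd209a peaks the level per kb was between 8.96 and 9.09 in MPP3 and between 7.58 and 7.97 in MPP4. None of the 5 windows held a GATA, PU.1, RUNX or CTCF match. Because very high narrow peaks can come from copies of mitochondrial DNA in the nucleus, their 20-base words were looked up in the mitochondrial genome, and 0 of them were found there in any of the 5.

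Each peak was searched for 14 motifs in its central 300 bp, on both strands. E-box words were the most frequent, in 39.1% of the shared intergenic peaks of MPP3, and GATA words came next, in 21.2%. RUNX words (TGTGGTT) were found in 15.8%, C/EBP words (TTGCNNAA) in 14.1% and AP-1 words (TGANTCA) in 13.4%. MYB words (GGCNGTT) were found in 12.7%, PU.1 words (GAGGAAGT) in 12.4%, words shared by ETS and IRF factors (GGAANNGAA) in 11.5%, SP/KLF words (GGGCGG) in 11.4% and interferon-response words (GAAANNGAA) in 10.9%. CTCF matches were found in 6.62%, ETS words (CCGGAA) in 6.55%, EBF1 words (TCCCNNGGG) in 5.27% and HOX-PBX words (TGATTNAT) in 3.36%. Some of these words overlap, such as PU.1 with ETS-IRF and ETS-IRF with the interferon-response word. A match is a description of the sequence and does not show binding.

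**Figure D2:**
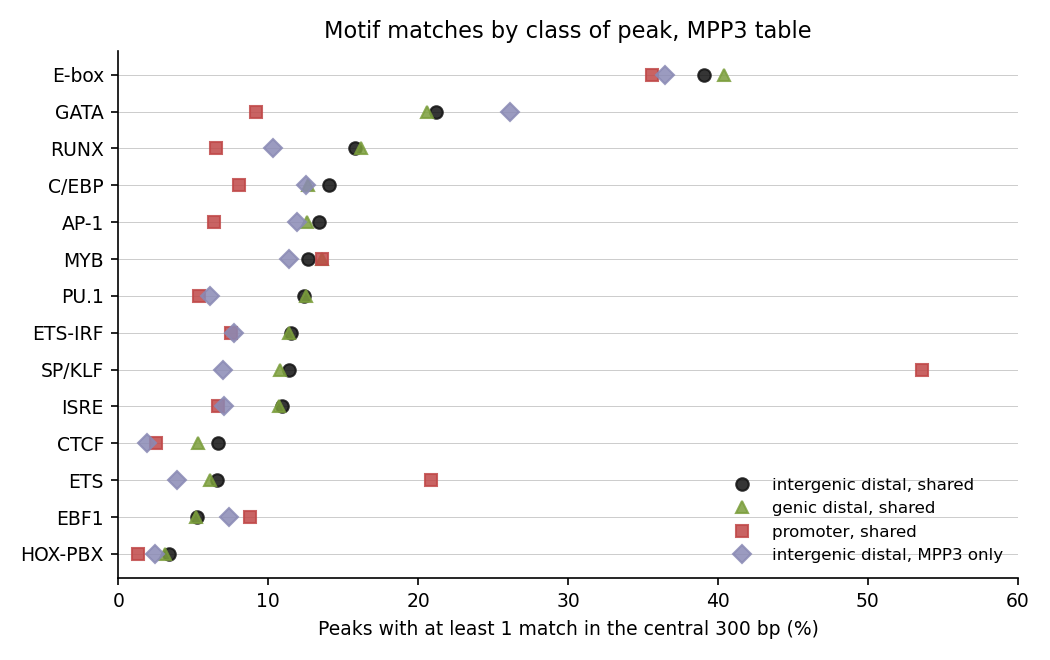
Share of peaks of the MPP3 table with at least 1 match to each motif in the central 300 bp, by class of peak. Shared intergenic (circles) and shared genic distal peaks (triangles) lie close together, while promoter peaks (squares) reach 53.6% for SP/KLF words against 11.4% in shared intergenic peaks.

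Shared intergenic peaks and shared distal peaks inside genes had like shares of most motifs. Over all peaks of the MPP3 table the GATA share was 19.2%, the E-box share 38.5%, the RUNX share 12.3% and the CTCF share 4.02%. The CTCF share was 6.62% in shared intergenic peaks, 5.30% in shared distal peaks inside genes, 2.47% in shared promoter peaks and 1.91% in intergenic peaks of MPP3 alone. In intergenic peaks of MPP4 alone it was 4.19%. Promoter peaks held SP/KLF words in 53.6% and ETS words in 20.8%, and GATA words in 9.20%. EBF1 words were more frequent in promoter peaks, at 8.79%, than in shared intergenic peaks, at 5.27%.

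CTCF matches were found at shorter distances from genes and in peaks of middle level. The share was 9.21% for peaks between 1 and 5 kb from a protein-coding start and 3.34% for those over 100 kb away. Ordered by level into 10 groups of equal size, the MPP3 peaks held a CTCF match in 5.87% of the lowest group, in 8.96% of group 4 and in 2.72% of the highest. SP/KLF words went from 6.13% in the lowest group to 21.5% in the highest, and ETS words from 3.67% to 11.3%. The median GC content of the same groups went from 48.0% to 53.3%. The GATA share was 22.1% in the lowest group and 23.5% in the highest. Among the MPP4 peaks, ordered in the same way, it was 25.4% in the lowest group and 17.3% in the highest.

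Levels in MPP3 and MPP4 were compared over 18154 pairs of shared intergenic peaks that covered at least 50% of each other. The motifs of a pair were those in the window of its MPP3 peak, whichever level was higher. The median of all 62794 matched peaks was subtracted, so that a difference of 0 is the typical matched peak. The median difference, MPP3 minus MPP4, was -0.09 on the log2 scale, with quartiles of -0.46 and 0.25. For matched promoter peaks it was 0.15, and for matched distal peaks inside genes it was -0.09. Pearson's r of the 2 levels across the pairs was 0.892, a description across peaks, which are not replicates and share their libraries.

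Of the 18154 pairs, 610 (3.36%) were higher in MPP3 by at least 1 and 958 (5.28%) were higher in MPP4 by at least 1, while 11647 (64.2%) were within 0.5 of each other. Over all matched peaks the shares were 3.03% and 4.15%. Among pairs with a mean level of at least 3 log2 CPM, 167 of 5855 (2.85%) were higher in MPP3 and 436 (7.45%) in MPP4, against 2.10% and 4.43% of all matched peaks of that level. The shares for matched distal peaks inside genes were 3.17% and 7.70% at that level. On levels per kb, 1.13% of the pairs were higher in MPP3 and 2.33% in MPP4. The peak was longer in the cell type with the higher level in 592 of the 610 pairs higher in MPP3 and in 928 of the 958 higher in MPP4.

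**Figure D3:**
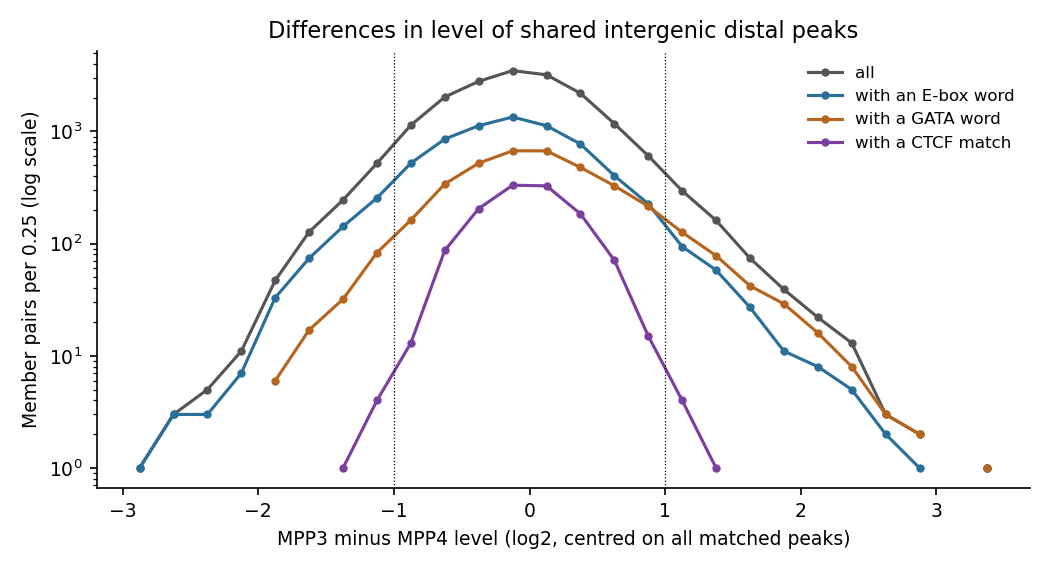
Number of pairs of shared intergenic distal peaks per 0.25 of the MPP3 minus MPP4 difference in level (log2, log scale on the y axis), for all pairs and for those with an E-box word, a GATA word or a CTCF match. Pairs with a GATA word come close to all pairs at the right, pairs with an E-box word do so at the left, and pairs with a CTCF match stay in the middle, 84.2% of them within 0.5.

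GATA words were most frequent in the peaks that were higher in MPP3. They were found in 305 of the 610 peaks higher in MPP3 by at least 1 (50.0%), in 20.1% of the 11647 pairs within 0.5 and in 138 of the 958 peaks higher in MPP4 (14.4%). Across the 6 bins of the difference, from MPP4 to MPP3, the share went 14.4%, 15.9%, 19.0%, 21.4%, 30.5% and 50.0%. Among pairs with a mean level of at least 3 log2 CPM it was 66.5% in the 167 peaks higher in MPP3, 18.1% within 0.5 and 12.4% in the 436 peaks higher in MPP4. Read the other way, 7.97% of the pairs with a GATA word were higher in MPP3 and 2.13% of those without one.

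The GATA words of the peaks higher in MPP3 were also more often repeated and more central. At least 2 words were found in 15.4% of the peaks higher in MPP3, in 2.48% of those within 0.5 and in 1.15% of those higher in MPP4. The word nearest the centre of the MPP3 peak lay a median of 34 bp away in the peaks higher in MPP3. In the others the median was 80 bp and 85 bp. Of the nearest words, 63.3% were within 50 bp, against 30.0% and 28.3%. With more words in a window the nearest tends to lie closer, so this measure is not independent of their number. AGATAA was found in 35.7% of the peaks higher in MPP3 and TGATAA in 22.6%. The median GC content of the 3 groups was 50.0%, 50.3% and 49.3%.

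E-box words were most frequent in the peaks that were higher in MPP4. They were found in 518 of the 958 peaks higher in MPP4 by at least 1 (54.1%), in 37.4% of those within 0.5 and in 207 of the 610 peaks higher in MPP3 (33.9%). In the same order of groups, CAGGTG was found in 33.4%, 20.4% and 15.7% and CAGCTG in 31.8%, 21.4% and 22.8%. At least 2 E-box words were found in 19.2% of the peaks higher in MPP4, against 9.00% of those within 0.5. RUNX words were found in 23.1% of the peaks higher in MPP4, 14.0% of those within 0.5 and 16.7% of those higher in MPP3. The ETS-IRF shares were 18.4%, 10.9% and 8.69%.

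CTCF matches were nearly missing from unequal peaks. They were found in 5 of the 610 peaks higher in MPP3 and in 5 of the 958 higher in MPP4, and in 8.99% of those within 0.5. Of the 1243 pairs with a match, 84.2% were within 0.5, against 62.7% of those without one. C/EBP words were found in 19.2% of the peaks higher in MPP3, 14.2% of those within 0.5 and 11.2% of those higher in MPP4. For EBF1 words the shares were 6.39%, 5.31% and 3.03%. Among pairs with a mean level of at least 3 log2 CPM, the C/EBP shares were 15.6%, 14.8% and 10.8%. The EBF1 shares at that level were 2.99%, 6.57% and 2.52%, so the EBF1 excess in peaks higher in MPP3 was not seen there.

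**Figure D4:**
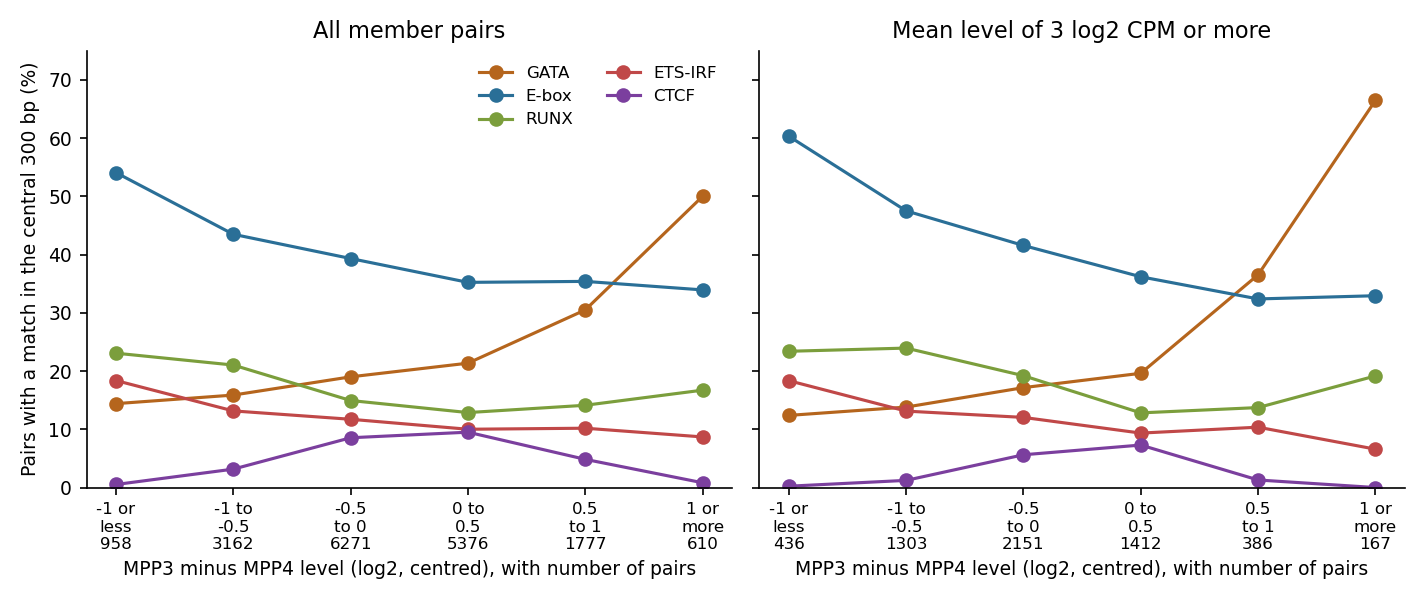
Share of pairs of shared intergenic distal peaks with a match to 5 motifs, by bin of the MPP3 minus MPP4 difference in level (log2), for all pairs (left) and for those with a mean level of at least 3 log2 CPM (right); the number of pairs stands under each bin. GATA reaches 50.0% and 66.5% at the right end and E-box 54.1% and 60.3% at the left end.

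Matched distal peaks inside genes had the same order of shares. In these, GATA words were found in 49.4% of those higher in MPP3, 19.5% of those within 0.5 and 13.5% of those higher in MPP4, and E-box words in 33.4%, 38.8% and 54.9%. In promoter peaks the GATA share was 30.5% in the 328 that were higher in MPP3, 8.50% in those within 0.5 and 10.6% in those higher in MPP4. Starts of the 2 megakaryocyte markers and of 2 of the 3 erythroid markers, genes which GATA factors bind, were open in both cell types. The 2 megakaryocyte markers were slightly higher in MPP3, Itga2b with 6.94 and 6.49 log2 CPM and Pf4 with 3.85 and 3.55. Of the erythroid markers, Hbb-bt had 1.68 and 1.18 log2 CPM and Klf1 no peak. Their part in the GATA result was not tested.

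The 5 largest excesses in MPP3 with a mean level of at least 3 log2 CPM were near Cand1, Epha4, Arid1b, Rpn1 and Usp12, and each of their windows held at least 1 GATA word. The Cand1 peak (chromosome 10, 119086460 to 119086946), 121506 bp from the start of this regulator of ubiquitin ligases, had 4.92 log2 CPM in MPP3 and 1.60 in MPP4, a difference of 3.36 and of 2.54 per kb. Its window, printed first above, held 4 GATA words. The Epha4 peak (chromosome 1, 77298662 to 77299174), 78689 bp from the start of an ephrin receptor gene, had 4.50 and 1.58 and held 2 GATA words and a PU.1 word. The Arid1b peak (chromosome 17, 4380821 to 4381334) lay 613255 bp from the start of this chromatin remodeller gene, with 4.61 and 1.76.

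The Rpn1 peak (chromosome 6, 88116606 to 88117402) had 5.62 log2 CPM in MPP3 and 3.12 in MPP4, a difference of 2.54 and of 1.92 per kb. It lay 15433 bp from the start of Rpn1, a subunit of the oligosaccharyltransferase, and 76887 bp from a start of Gata2, which was looked up after the values were seen. The Usp12 peak (chromosome 5, 146703683 to 146704129), near a deubiquitinase gene, had 4.71 and 2.28 and held 2 GATA words. Of the 20 peaks with the largest excess in MPP3, 15 held a GATA word, and of the 50 largest, 39 did.

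The 5 largest excesses in MPP4 were nearest to the starts of A430005L14Rik (229016 bp away), Spata5, Sfswap, Gadl1 (299249 bp away) and Rflna. None of their windows held a GATA word, while 4 held an E-box word. The A430005L14Rik peak (chromosome 4, 153728080 to 153728362) had 2.02 log2 CPM in MPP3 and 4.88 in MPP4, a difference of -2.82 and of -2.18 per kb. The Spata5 peak (chromosome 3, 37605861 to 37606311) had 3.58 and 6.34, the highest level of the 5. It lay 32468 bp from the start of Spata5 and 33861 bp from that of Spry1, an inhibitor of receptor tyrosine kinase signalling. The Sfswap peak (chromosome 5, 129456561 to 129456833), near a splicing regulator gene, had 1.99 and 4.51 and held 2 E-box words. The Gadl1 and Rflna peaks had 2.19 and 3.06 log2 CPM in MPP3 and 4.51 and 5.38 in MPP4. Of the 20 peaks with the largest excess in MPP4, 13 held an E-box word and 1 a GATA word.

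Neighbouring shared intergenic peaks were grouped into runs, without a comparison to other classes of peak. Joined where the gap was at most 10 kb, the MPP3 peaks formed 12132 runs, of which 8018 were single peaks, 3815 held 2 to 4 and 299 held 5 or more. Of all the peaks, 58.0% lay in a run with at least one other. Within runs of 2 or more, the MPP3 minus MPP4 difference had an SD of 0.53 about the mean of its run, against 0.58 over the same 10288 pairs without regard to runs, so peaks of 1 run differed among themselves nearly as much as peaks of different runs.

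The 2 longest runs by count held 13 peaks each. One, on chromosome 12 from 86790799 to 86843220, lay between Lrrc74a and Irf2bpl, a transcriptional regulator gene, with levels from 1.67 to 6.13 log2 CPM in MPP3. All of its 11 matched pairs differed by less than 1, from -0.43 to 0.63, and 7 were below 0. The other, on chromosome 19 from 37472629 to 37543763, spanned the ground between Hhex, a homeobox gene used in stem and lymphoid progenitor cells, and Exoc6, a subunit of the exocyst, with 1.37 to 5.04 log2 CPM in MPP3 and 4 of 11 matched pairs below 0. Runs of 11 lay between Notch1 and Egfl7, the first a receptor needed for the T lineage, near Runx3, a transcription factor of T and NK cells, and near Plet1. In the Notch1 run 8 of 10 matched pairs were below 0, and the same was true of 8 of 10 in the Runx3 run and 8 of 11 in the Plet1 run, where 2 peaks were higher in MPP4 by at least 1. Over all pairs, 57.2% were below 0.

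Assigned to the nearest protein-coding start, the MPP3 peaks fell to 7252 genes, and 207 of these had 10 or more. Gadd45g, a stress-induced growth arrest gene, had the most, 37, between 2251 and 321360 bp from its start. Rybp, a Polycomb component, had 29. Cxcr4, the chemokine receptor that holds progenitors in the marrow, Fut8, which adds core fucose to glycoproteins, and Rplp1, a ribosomal protein gene, had 25 each. Maf, a transcription factor of macrophages and T cells, Prex1, an activator of Rac, and Tle3, a Groucho corepressor, had 24 each, and Cdh26 and Haao had 22 each. The 11th gene also had 22. Genes with wide intergenic flanks can collect more peaks, and the count was not divided by the length of the flanks.

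Levels varied widely among the peaks of 1 gene. The 25 Cxcr4 peaks ranged from 1.06 to 6.40 log2 CPM in MPP3 and from 0.74 to 6.73 in MPP4, with 1 pair higher in MPP3 by at least 1 and 3 higher in MPP4. The 25 Fut8 peaks included a pair at 2.33 and a pair at -1.70. The 22 Haao peaks had the highest median of the 10 genes in both cell types, 3.48 log2 CPM in MPP3 and 3.83 in MPP4. None of their 21 matched pairs differed by 1 or more. The Cdh26 peaks leaned most to MPP4, with 17 of 19 pairs below 0, 4 of them by at least 1, and a median of -0.68. For Gadd45g and Maf the median difference was 0.01.

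Genes of the blood lineages had more of these peaks than the average gene. A shared intergenic peak was assigned to 18 of 24 stem and progenitor genes, 17 of 20 myeloid genes, 17 of 26 lymphoid genes and 10 of 20 genes of tissues outside blood, against 34.9% of all 20780 autosomal protein-coding genes. The mean number of peaks per gene was 4.46, 4.75, 3.77 and 1.05, against 0.919 over all genes, and the median was 3, 1, 2 and 0.5, against 0. Maf, Klf4 and Id2 held most of the myeloid peaks. The median level in MPP3 was 2.42 log2 CPM for the peaks of stem and progenitor genes, 2.87 for myeloid, 2.32 for lymphoid and 1.41 for tissues outside blood, against 2.32 over all. Genes outside blood with no peak included Myod1, Pax6, Neurod1 and Sox2.

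Among the stem and progenitor genes, Runx1, a founder of the blood lineages, had 20 peaks, Kit, the receptor of stem cell factor, 15, and Meis1 and Lmo2 11 each. The Runx1 peaks lay 2016 to 365352 bp from a start and ranged from 0.91 to 5.32 log2 CPM in MPP3 and from 0.91 to 5.78 in MPP4, and 2 of 17 pairs were higher in MPP4 by at least 1. The Lmo2 pairs had a median difference of 0.52, and those of Meis1 -0.44. Mecom, Hoxa9, Bmi1, Lyl1, Zfpm1 and Zfpm2 had none. Of the 95 matched pairs of this list, 4 were higher in MPP3 by at least 1 (4.21%), near Fli1, Kit, Lmo2 and Myb, and each held a GATA word. The Kit peak, 112943 bp downstream of the start, had 3.35 and 1.37 log2 CPM. Another Kit peak, at 144203 bp, had 0.79 and 2.44. The 6 pairs higher in MPP4 (6.32%) were near Etv6, Kit, Meis1, Mycn and Runx1. Over all 18154 pairs the shares were 3.36% and 5.28%.

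Among the myeloid genes, Maf had 24 peaks, Klf4, a transcription factor of monocytes, 18, and Id2, an inhibitor of E proteins, 17. Of 88 pairs, 3 were higher in MPP3 by at least 1 and 3 in MPP4 (3.41% each). Over all pairs the shares were 3.36% and 5.28%. Cebpe, a transcription factor of granulocyte maturation, had 2 of those higher in MPP3, one with 6.23 and 4.39 log2 CPM and one with 4.20 and 2.08, at 6158 and 5402 bp. Elane, which encodes neutrophil elastase, had 1, at 1597 bp, with 4.06 and 2.69. All 4 pairs of Ctsg, cathepsin G, were above 0, from 0.31 to 0.65, as was the pair of Prtn3, proteinase 3, at 0.45. The peak of Gfi1, a repressor needed for neutrophils, had 2.49 and 3.36, and the 5 pairs of Cebpa, a factor of early myeloid commitment, had a median difference of -0.70, 2 of them being above 0. The peak of Csf1r, the receptor of macrophage colony-stimulating factor, had 5.47 log2 CPM in MPP3 and 6.50 in MPP4. The single peak of Spi1, which encodes PU.1, had 3.23 and 3.35. Irf8, Cebpb and Cebpd had none.

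Among the lymphoid genes, Bcl11a, a transcription factor needed for early lymphoid cells, had 18 peaks, Foxo1, an activator of lymphoid genes, 14, and Lef1, a Wnt effector of lymphocytes, 10. Of 93 pairs, 6 were higher in MPP3 by at least 1 (6.45%) and 7 in MPP4 (7.53%), against 3.36% and 5.28% of all pairs. Those higher in MPP4 included peaks of Il7r, the receptor of interleukin 7, with 1.56 and 2.98 log2 CPM at 41898 bp, and of Lef1, with 4.48 and 5.72 at 90697 bp. The others were near Dntt, Foxo1, Gata3, Satb1 and Tcf7. Dntt, which encodes the terminal transferase of lymphoid progenitors, had 5 peaks with a median difference of -0.90.

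Peaks of the same lymphoid gene could point in opposite directions. Tcf7, a transcription factor of T cells, had a peak at 22460 bp with 3.71 log2 CPM in MPP3 and 2.42 in MPP4, which held a GATA word, and one at 27928 bp with 1.54 and 2.98, which held an E-box word. Gata3, another T-lineage factor, had one at 185286 bp with 2.88 and 0.95 and a GATA word. Far from it, at 70959 bp, was one with 2.01 and 3.41 and an E-box word. The peak nearest to each leaned the same way, with a difference of 0.83 at 191844 bp and of -0.91 at 71985 bp. Foxo1 also had peaks in both directions, but their words did not follow this order. Its peak at 200303 bp, with 1.88 log2 CPM in MPP3 and 0.91 in MPP4, held 2 E-box words and no GATA word. Its peak at 190388 bp, with 4.68 and 5.82, held a GATA word and an E-box word. Ebf1 itself had 2, with 1.16 to 1.78 log2 CPM in MPP3 and 1.32 to 1.37 in MPP4. Pax5, Ikzf1, Ikzf3, Flt3, Rag1, Rag2, Cd79a, Vpreb1 and Ccr9 had none.

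**Figure D5:**
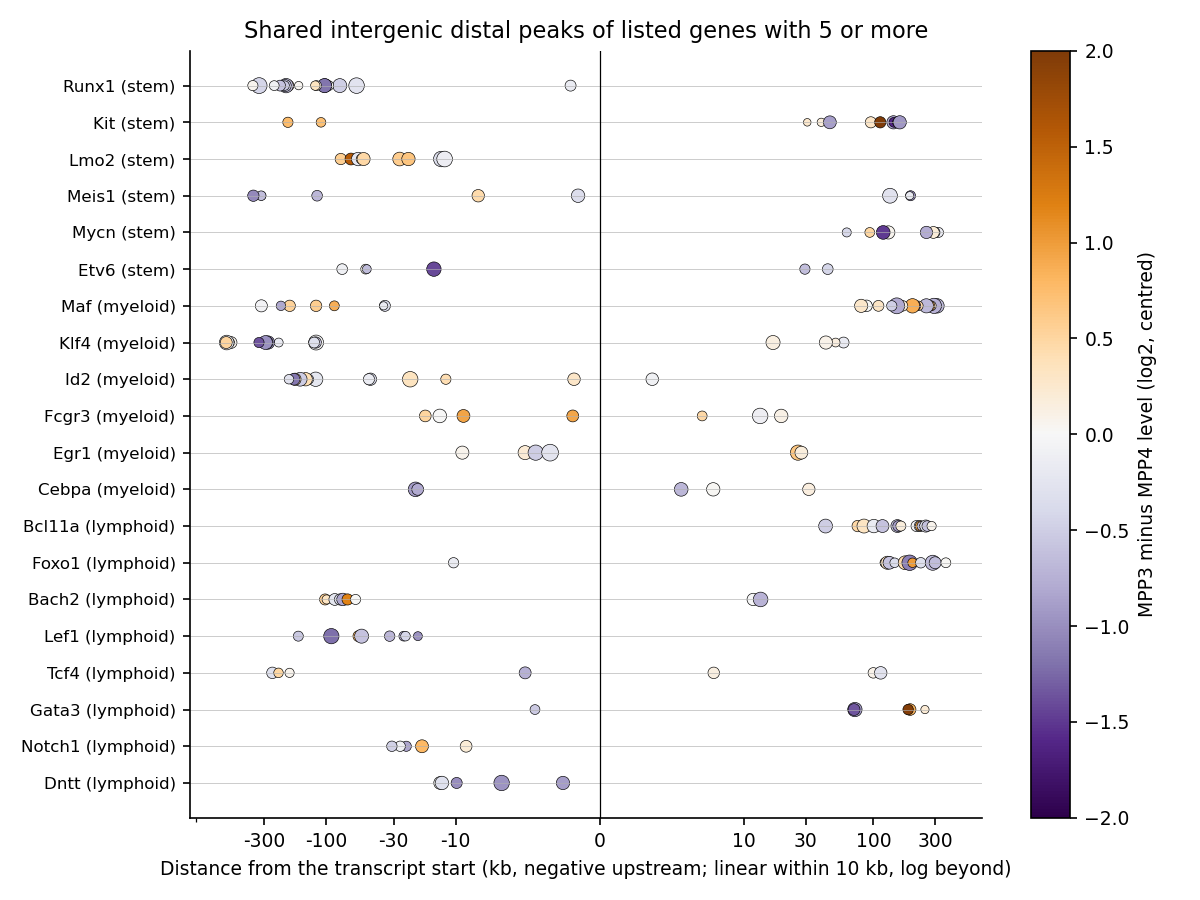
Shared intergenic distal peaks of listed genes with at least 5 matched pairs, by distance from the transcript start in kb (linear within 10 kb, log beyond); each point is 1 peak, its area grows with the mean level and its colour gives the MPP3 minus MPP4 difference (log2). Orange and purple points, higher in MPP3 and in MPP4, both occur at Kit and Gata3.

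Over the 4 lists together, 13 of 296 pairs (4.39%) were higher in MPP3 by at least 1 and 18 (6.08%) were higher in MPP4, against 3.36% and 5.28% of all pairs. A GATA word was found in 9 of the 13 and in 3 of the 18, and an E-box word in 6 of the 13 and 11 of the 18.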

How the data were processed

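ATAC-seq libraries of MPP3 and MPP4 cells, 2 per genotype from 5000 cells each, were sequenced. Per the paper's methods and the labels, the authors trimmed reads (Cutadapt 2.10), aligned them to mm10, removed duplicates, kept short fragments (deepTools 3.3.2), called peaks (MACS2 2.2.7.1) and merged the peaks of both genotypes per cell type. The authors deposited, per peak, a position and a mean log2 CPM over 4 libraries from edgeR. The remaining columns hold the authors' own comparison of genotypes (a fold change, a test statistic and p-values) and were not used. The labels give a planned depth of 50000000 reads per library, and the reads counted in single libraries were not given in the files used here.

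Starts were raised by 1 to count from 1. Transcript starts and gene bodies came from GENCODE vM21 and sequence from GRCm38. Peaks of both tables were paired by their largest overlap, at least 50% of each, and the median difference of all matched peaks, -0.04, was subtracted. Motifs were searched in the central 300 bp with Python 3.11.15 and pandas 2.3.3; the functions were tested on simulated data. CpG, GC and motifs refer to this window and repeats to soft-masked bases of the whole peak. Named peaks were those of 4 gene lists, the 5 highest per kb, the 5 largest differences in each direction with a mean of at least 3 log2 CPM, the 10 genes and 5 runs with most peaks, and the 3 peaks farthest from a start. The printed CTCF window, the bins of the difference and the search for mitochondrial words were chosen after seeing the data. The peaks and lists were chosen with earlier results of these data known. Alternatives changed the distance, overlap, scale, centring, level filter, window, gap and gene set. A few genes of the lists are not reported here.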

Additional observations from a re-analysis of the deposited data

How the results depend on the processing

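No paired analysis was possible because the tables hold 1 mean per peak and no values of single libraries, and for the same reason no replicate could be left out. Depth limits weak peaks most, and how much could not be measured here. Of 124 recomputed values, 51 stayed within the 95% exact binomial interval of a share, 0.1 on the log2 scale, 10% of a distance or 1.5 times a count, and 73 moved. None changed sign. The number of peaks under the other rules and the number of runs with gaps of at most 5 kb stayed within 1.5 times. The median level was 4.13 (MPP3) and 4.18 (MPP4) log2 CPM per kb, and 2.97 and 3.10 log2 CPM for peaks of at least 2. The median distance to a protein-coding start was 24514 and 24433 bp. The gene with the most peaks had 21 instead of 37 by the nearest start of any gene, and 2 of the 10 leading genes were shared.

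The share of pairs higher in MPP3 by 1 was 3.10% without centring, 1.13% per kb, 1.41% at 80% overlap, 4.21% at 1 bp and 2.85% from 3 log2 CPM on. The share higher in MPP4 was 6.06%, 2.33%, 3.13%, 6.46% and 7.45% in the same order. It stayed the larger of both in each. From 3 log2 CPM on the median difference was -0.22.

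Choices added after seeing the data concern words. In peaks higher in MPP3 the GATA share was 67.0% per kb, 58.5% at 80% overlap, 66.5% from 3 log2 CPM on and 42.5% in windows of 200 bp. In peaks within 0.5 it was 18.1% from 3 log2 CPM on, 12.4% in 200 bp and 19.1% over whole peaks. In peaks higher in MPP4 the E-box share was 59.8% per kb, 60.3% from 3 log2 CPM on and 44.2% in 200 bp, and within 0.5 it was 39.4% and 28.4% for the last 2. The CTCF share of unequal peaks was 0.166% from 3 log2 CPM on. Over all shared intergenic peaks, 200 bp gave GATA shares of 14.0% (MPP3) and 13.4% (MPP4) and E-box shares of 30.0% and 30.2%. Whole peaks gave 21.5% and 40.9% in MPP4. In each of these settings, GATA words were more frequent in peaks higher in MPP3 than in those within 0.5, and E-box words in peaks higher in MPP4.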

Other observations

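Unequal shared intergenic peaks without a GATA or E-box word were also counted. Neither word was found in 199 of the 610 peaks higher in MPP3 by at least 1 (32.6%), in 49.9% of those within 0.5 and in 369 of the 958 peaks higher in MPP4 (38.5%). Both words were found in 16.6%, 7.41% and 6.99%. Peaks higher in MPP4 lay farther from genes, with a median of 37669 bp to a protein-coding start, against 24300 bp for those higher in MPP3 and 22456 bp for those within 0.5. Their median level was 2.87 log2 CPM, against 2.27 and 2.33.

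AP-1 words were found in 17.4% of the peaks higher in MPP3, 13.2% of those within 0.5 and 11.8% of those higher in MPP4. With a mean level of at least 3 log2 CPM these shares were 14.4%, 13.8% and 12.2%. In pairs with a mean level below 3 log2 CPM the GATA share was 43.8% in the peaks higher in MPP3 and 16.1% in those higher in MPP4, so the order of the GATA shares was the same at low levels.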
